A study of Mus musculus with 10 samples.

Results

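The expression of 9 genes around cyclin E/A, Cdk2 and p27 turnover was followed in bulk RNA of the dissected mouse pituitary intermediate lobe (IL). They are Ccne1, Ccne2, Ccna1, Ccna2 and Cdk2, which encode the cyclin-kinase complexes that P27 inhibits, and Skp2, Cks1b, Cks2 and Cul1, which encode parts or relatives of parts of the ligase that marks P27 for degradation. The members were taken by symbol, without a filter on their values but with earlier results of these data known. All 9 were found among the 29527 genes of the table. A total of 8 of them were among the 17268 genes tested, and Ccna1 was too low to be tested.

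The IL is a thin lobe made mostly of melanotrophs, endocrine cells that make proopiomelanocortin, and mice without P27 develop IL tumors. The samples were 4 of wild-type (WT) mice, 3 of p27-/- mice, which lack both copies of Cdkn1b, the gene for P27, and 3 of p27-/-;Sox2+/- compound mutants, which also lack 1 copy of Sox2, all at an age of 2 to 3 months. Both mutant groups lack P27, and no group with Sox2+/- alone was among these samples. By the sex-linked genes Xist and Ddx3y, 2 WT, 2 p27-/- and 2 p27-/-;Sox2+/- samples were female and the others male, the numbers listed in the paper. In these germline mutants every cell of the lobe carries the alleles, so the values are of whole tissue and not of melanotrophs or stem cells alone. The deposited values are log2 normalized expression. The values of weakly expressed genes may be pulled towards their mean over the samples, which would make their differences smaller than those of counts. This was not measured.

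In a dividing cell, cyclin E and then cyclin A bind the kinase CDK2 and drive entry into and passage through S phase, and P27 holds these complexes inactive. P27 is in turn removed when CDK2 phosphorylates it, after which SKP2 with its cofactor CKS1 brings it to a ligase built on CUL1 for ubiquitination. Since P27 acts on the protein complexes, and SKP2 acts on the P27 protein, RNA levels show the supply of the parts and neither kinase nor ligase activity.

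Proximal promoters are shown for the CKS genes, a pair of related genes, and for Cdk2, which showed almost no difference in p27-/-. Of the CKS genes, Cks2 rose in p27-/- by 0.41 on the log2 scale. Cks1b, with a similar difference of 0.34, did not pass the test, and the 2 differences were not compared. Each runs 5′ to 3′ on the strand of the gene, from 250 bases before to 50 bases after the annotated start, as given by RefSeq for GRCm38.p6. Capitals mark the words searched on both strands, which were CCAAT, the CHR words TTTGAA and TTCGAA found in many promoters of G2 and mitotic genes, and the E2F words TTTCCCGC, TTTCGCGC, TTTGCCGC and TTTGGCGC. The Cks1b sequence is chr3:89418242-89418541 on the minus strand, the Cks2 sequence chr13:51644982-51645281 on the plus strand, and the Cdk2 sequence chr10:128705002-128705301 on the minus strand.
Cks1b: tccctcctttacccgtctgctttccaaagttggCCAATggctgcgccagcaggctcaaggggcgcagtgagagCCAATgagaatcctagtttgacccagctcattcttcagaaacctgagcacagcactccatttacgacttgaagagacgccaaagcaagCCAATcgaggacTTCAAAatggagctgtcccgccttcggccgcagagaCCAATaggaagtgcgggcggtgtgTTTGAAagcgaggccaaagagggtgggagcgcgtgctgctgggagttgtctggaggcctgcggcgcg
Cks2: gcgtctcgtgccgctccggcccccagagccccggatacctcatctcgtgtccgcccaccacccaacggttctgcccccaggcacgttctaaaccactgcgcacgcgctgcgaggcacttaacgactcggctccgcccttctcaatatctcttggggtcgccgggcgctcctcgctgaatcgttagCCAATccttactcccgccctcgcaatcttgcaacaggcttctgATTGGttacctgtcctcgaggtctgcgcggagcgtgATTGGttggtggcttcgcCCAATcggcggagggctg
Cdk2: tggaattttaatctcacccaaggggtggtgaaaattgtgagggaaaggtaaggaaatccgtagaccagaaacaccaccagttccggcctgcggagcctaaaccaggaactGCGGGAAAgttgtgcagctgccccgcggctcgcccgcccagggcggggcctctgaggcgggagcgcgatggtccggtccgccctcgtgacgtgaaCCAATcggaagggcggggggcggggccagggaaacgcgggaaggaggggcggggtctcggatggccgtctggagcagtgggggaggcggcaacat

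The Cks1b and the Cks2 promoter each held 4 CCAAT words. Of the 32851 RefSeq mouse promoters of this length, 1.06% held at least that many and 37.4% held at least 1. Cks1b also had 2 CHR words, and 2.54% of promoters held at least that many and 19.2% at least 1. The Cks2 window held no CHR word and no E2F word. Cdk2 had 1 CCAAT and 1 E2F word, TTTCCCGC on the opposite strand, and an E2F word was found in 2.26% of promoters. Promoters of 7 of the 9 genes were matched, and those of Ccna2 and Ccne2 were not. These are matches of letters and say nothing on binding in the IL.

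Of the tested members, 2 rose in p27-/- compared with WT IL, the cyclin gene Ccna2 and the CDK subunit gene Cks2, and none fell. Among all tested genes 3.16% rose and 7.78% changed in either direction, so 2 of 8 is a larger share. It comes from very few genes, chosen with earlier results of these data known. Before adjustment Skp2, Cks1b and Ccne2 were also under 0.05 in p27-/-, as were 4155 of all tested genes. In p27-/-;Sox2+/- compared with WT none of the 8 passed the limma test, where 2.71% of all genes changed and 0.828% rose. Before adjustment 1 member, Cks2, was under 0.05, as were 3075 of all tested genes. Between the mutants none passed limma either, with 0.145% of all genes changed. Again 1 member, this time Ccna2, was under 0.05 before adjustment, as were 1148 of all tested genes. In whole lobes a larger number of cells with a transcript and more transcript per cell cannot be told apart.

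**Figure D1:**
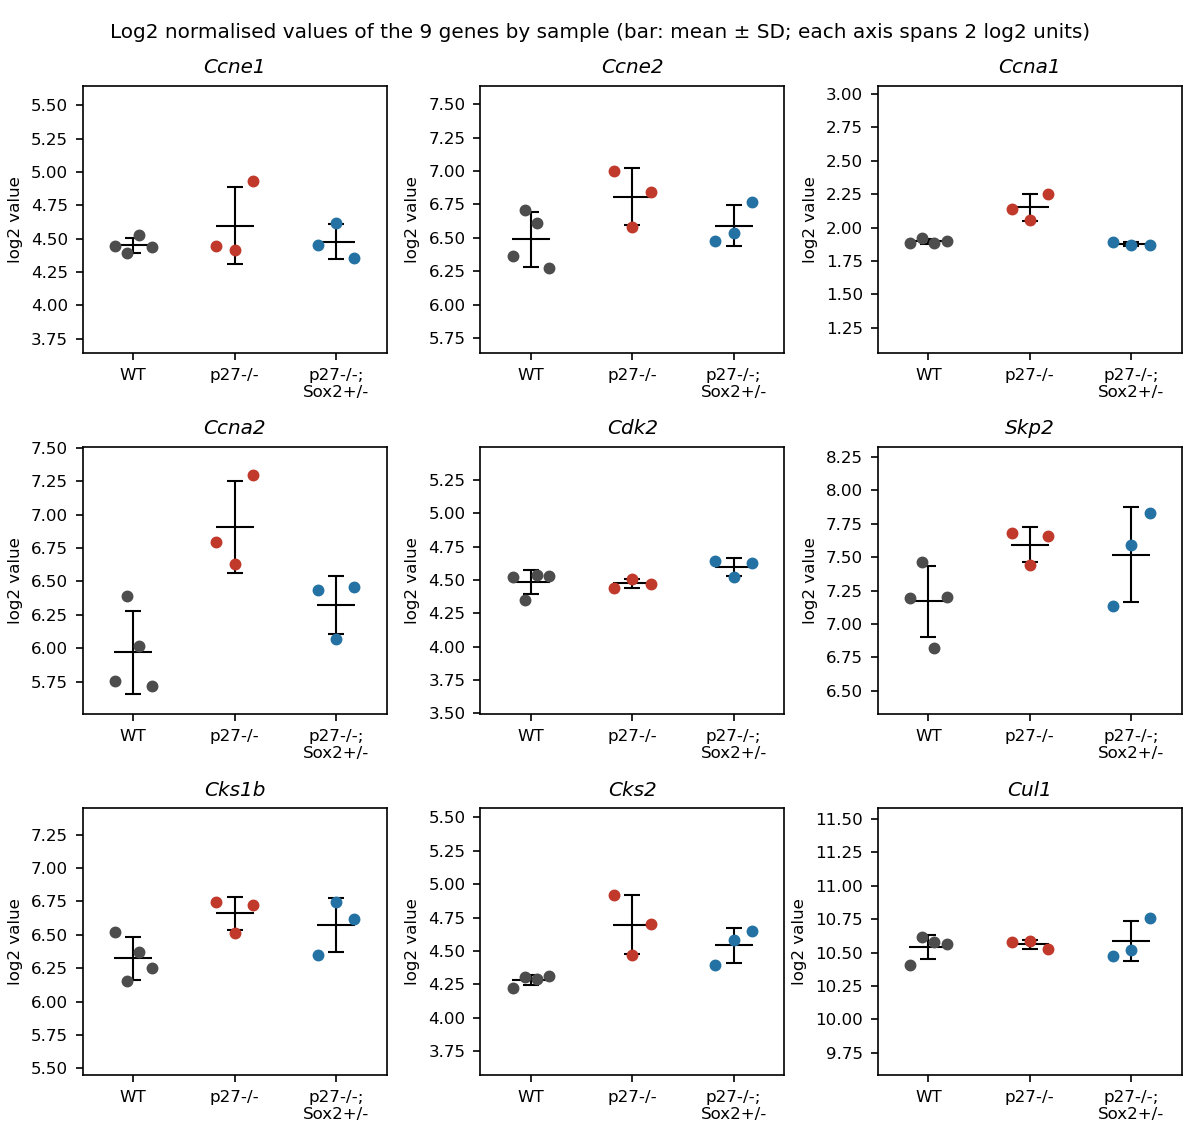
Log2 normalized value of each of the 9 genes (vertical axes, each spanning 2 log2 units) in every sample of WT (n = 4), p27-/- (n = 3) and p27-/-;Sox2+/- (n = 3), with points for samples and bars for mean ± SD. Ccna2 and Cks2 lie higher in every p27-/- sample than in every WT sample, while Cul1 and Cdk2 stay within a narrow range.

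The state of the targeted genes in these libraries is given first. Cdkn1b (ENSMUSG00000003031; chromosome 6, 134920401 to 134925525 of GRCm38.p6) had log2 values of 8.54, 8.85, 8.39 and 8.66 in WT, 8.27, 8.04 and 8.22 in p27-/- and 8.10, 7.73 and 7.83 in p27-/-;Sox2+/-. Every mutant sample lay under every WT sample, and limma called it lower in both. Cdkn1b fell by 0.43 in p27-/- (limma, adjusted p = 0.047), whereas in the compound mutant it fell by 0.72 (adjusted p = 0.00854). The gene-level values do not show which part of the transcript was read, so they do not test for intact P27 message. Sox2 had log2 values from 7.34 to 7.76 in WT and from 7.08 to 7.45 in p27-/-, and the compound mutants, at 6.88 to 7.07, lay under all of them, but the differences of -0.46 from WT (limma, adjusted p = 0.0811) and -0.29 from p27-/- (adjusted p = 0.791) did not pass the test.

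The labelled tissue carried its markers. The levels of 6 melanotroph markers summed to between 282400 and 552900 normalized units in WT, between 414200 and 549600 in p27-/- and between 357500 and 405000 in p27-/-;Sox2+/-, sums in which Pomc is by far the largest part. Of these 6, limma called the prohormone convertase genes Pcsk2 (0.53, adjusted p = 0.0352) and Pcsk1 (-0.45, adjusted p = 0.0206) in p27-/-, and Pcsk1 also in the compound mutant (-0.42, adjusted p = 0.0498). Of 6 stem cell markers 5 were tested, all with a difference below 0 in p27-/-, and 0 passed limma there or in the compound mutant, with 1 in each under 0.05 before adjustment. Anterior lobe hormone markers, of which 7 of 8 were found, summed to between 15380 and 223300 in WT, between 7152 and 96520 in p27-/- and between 11260 and 29350 in p27-/-;Sox2+/-, with the highest sum in WT replicate 2. In p27-/- compared with WT, limma called 1 of these 7 (Fshb, lower), 1 of 6 endothelial markers (Kdr, lower), 2 of 6 fibroblast and mural markers (Pdgfra and Lum, lower), 0 of 6 macrophage markers (0 under 0.05 before adjustment) and 0 of 6 posterior lobe markers (4 so). In the compound mutant it called Fshb (-2.27) and Kdr (-0.67), both lower, and no macrophage (1 under 0.05 before adjustment), fibroblast and mural (3 so) or posterior lobe marker (3 so). All 6 posterior lobe markers had differences below 0 in both mutants, with medians of -0.56 in p27-/- and -0.63 in p27-/-;Sox2+/-. The part of cell composition in the differences given here was not tested.

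Neither gene of cyclin E, the partner with which CDK2 starts S phase, passed the test in either mutant. Ccne1 (ENSMUSG00000002068; chromosome 7, 38097984 to 38107490) had log2 values of 4.45, 4.39, 4.53 and 4.44 in WT, 4.45, 4.42 and 4.93 in p27-/- and 4.45, 4.62 and 4.36 in p27-/-;Sox2+/-. All 3 groups overlapped, and p27-/- replicate 3 was the highest of the 10 samples. The difference from WT was 0.15 in p27-/- (limma, adjusted p = 0.515) and 0.03 in the compound mutant (adjusted p = 0.940), and without that replicate the p27-/- difference was -0.02.

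Ccne2 (ENSMUSG00000028212; chromosome 4, 11190433 to 11204779) is the second cyclin E gene. Its log2 values were 6.36, 6.71, 6.61 and 6.27 in WT, 7.00, 6.58 and 6.84 in p27-/- and 6.47, 6.53 and 6.77 in p27-/-;Sox2+/-. The groups overlapped, with p27-/- replicate 2 below 2 of the WT samples. The difference of p27-/- from WT was 0.32 (SE 0.14; limma, adjusted p = 0.194), that of p27-/-;Sox2+/- was 0.10 (adjusted p = 0.758), and neither passed the test. Its annotated span overlaps that of Ints8, as that of Skp2 does with Lmbrd2. The counting did not use strand, so reads of any shared transcribed stretch may not be fully separated. Overlap of exons was not checked.

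Cyclin A takes over CDK2 during S phase and later also binds CDK1, and Ccna2 encodes the form of dividing somatic cells. Ccna2 (ENSMUSG00000027715; chromosome 3, 36564865 to 36573038) had log2 values of 5.76, 6.39, 6.01 and 5.72 in WT, 6.79, 6.63 and 7.30 in p27-/- and 6.44, 6.07 and 6.46 in p27-/-;Sox2+/-. Every p27-/- sample was above every sample of both other genotypes, whereas the compound mutants overlapped WT because WT replicate 2 lay above the lowest of them. WT replicate 2 also had the highest Mki67, the proliferation marker, of the WT samples, at 8.12 against 6.79 to 7.27 in the others. The end of Ccna2 overlaps the annotated end of Exosc9, to which the same limit applies.

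Ccna2 rose in p27-/- by 0.94 on the log2 scale (SE 0.19, 95% interval 0.53 to 1.34, 1.92-fold; limma, adjusted p = 0.0107), the largest difference among the members. Without p27-/- replicate 3, the highest sample, the difference was 0.74 and no longer passed (adjusted p = 0.0669), while it passed in the other 18 of 19 alternatives. Without WT replicate 2 it was 1.08 (adjusted p = 0.00337). The compound mutant mean of 6.32 ± 0.22 (SD, n = 3) stood between those of WT, 5.97 ± 0.31 (SD, n = 4), and of p27-/-, 6.91 ± 0.35 (SD, n = 3). Its difference from WT was 0.35 (adjusted p = 0.352) and from p27-/- -0.58 (95% interval -1.02 to -0.15, adjusted p = 0.503), and neither passed the test over all genes. The groups of the 2 mutants did not overlap for Ccna2, lower in the compound mutant, as for 7.75% of all tested genes.

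The other cyclin A gene, Ccna1 (ENSMUSG00000027793; chromosome 3, 55045469 to 55057634), is used mainly in the male germ line. Its log2 values were 1.88, 1.92, 1.88 and 1.90 in WT, 2.14, 2.06 and 2.25 in p27-/- and 1.89, 1.87 and 1.87 in p27-/-;Sox2+/-. All p27-/- samples lay above all others, at levels far under the log2 minimum of 3.32 for testing. In a fit without that minimum the difference of p27-/- from WT was 0.25 (limma, adjusted p = 0.0213) and that of p27-/-;Sox2+/- was -0.02 (adjusted p = 0.910), but at this level a few reads decide the value, and Ccna1 is not counted among the members that rose.

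Cdk2 (ENSMUSG00000025358; chromosome 10, 128697938 to 128705051), the kinase itself, had log2 values of 4.52, 4.35, 4.54 and 4.53 in WT, 4.44, 4.51 and 4.47 in p27-/- and 4.64, 4.52 and 4.63 in p27-/-;Sox2+/-. The p27-/- samples lay within the WT range and 2 of the 3 compound mutants just above it. The mutants did not overlap each other, the compound mutant being higher, as in 7.51% of all tested genes. The difference from WT was -0.01 in p27-/- (limma, adjusted p = 0.954) and 0.11 in the compound mutant (adjusted p = 0.565), and that between the mutants was 0.12 (adjusted p = 0.960). The annotated span of Pmel covers Cdk2, and the counting did not use strand, so reads of the 2 genes may not be fully separated.

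On the side of P27 removal, Skp2 (ENSMUSG00000054115; chromosome 15, 9111982 to 9155425), the F-box protein that recognizes phosphorylated P27, had log2 values of 7.19, 7.46, 6.82 and 7.20 in WT, 7.68, 7.44 and 7.66 in p27-/- and 7.13, 7.59 and 7.83 in p27-/-;Sox2+/-. Replicates 1 and 3 of p27-/- exceeded all WT samples and replicate 2 did not, and in the compound mutant replicate 1 lay inside the WT range and the other 2 above it. By Xist and Ddx3y, p27-/- replicate 2 and p27-/-;Sox2+/- replicate 1 were the only males of their groups. Both were the lowest of their group for Ccne2, Skp2, Cks1b and Cks2, but not both for any other member. The part of sex in these low values was not tested. The difference of 0.42 in p27-/- (SE 0.17; limma, adjusted p = 0.145) and that of 0.35 in p27-/-;Sox2+/- (adjusted p = 0.304) did not pass the test.

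Cks1b (ENSMUSG00000028044; chromosome 3, 89415472 to 89418291) encodes the cofactor that SKP2 needs to bind P27. Its log2 values were 6.52, 6.15, 6.37 and 6.25 in WT, 6.74, 6.52 and 6.72 in p27-/- and 6.35, 6.75 and 6.62 in p27-/-;Sox2+/-. Of the p27-/- samples replicate 2 lay just under the highest WT sample and the other 2 above it. The differences of 0.34 in p27-/- (SE 0.13; limma, adjusted p = 0.137) and 0.25 in the compound mutant (adjusted p = 0.349) did not pass. A related gene, Cks1brt on chromosome 8, may share reads with it.

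Cks2 (ENSMUSG00000062248; chromosome 13, 51645232 to 51650662) encodes the second CKS protein, which binds CDKs and, unlike CKS1, is not known as the cofactor for P27. It had log2 values of 4.23, 4.30, 4.29 and 4.31 in WT, 4.92, 4.47 and 4.71 in p27-/- and 4.40, 4.58 and 4.65 in p27-/-;Sox2+/-. The WT samples were close together and every mutant sample of either genotype was above them. Ccna2 and Cks2 were thus the tested members whose p27-/- samples were all higher than WT, as were 10.2% of all tested genes, and Cks2 was the only one in the compound mutant, as were 7.02% of all.

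Cks2 rose in p27-/- by 0.41 (SE 0.11, 95% interval 0.17 to 0.65, 1.33-fold; limma, adjusted p = 0.0401). This call was near the threshold and was lost in 11 of 18 alternatives, with an adjusted p of 0.174 without p27-/- replicate 1 as the highest, and also without p27-/- replicate 3, without any of the 4 WT replicates or without p27-/-;Sox2+/- replicate 2. Its difference of 0.26 in p27-/-;Sox2+/- did not pass the test (limma, adjusted p = 0.243), and that between the mutants was -0.16 (adjusted p = 0.958).

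Cul1 (ENSMUSG00000029686; chromosome 6, 47453732 to 47526144), the scaffold that this ligase shares with many other F-box proteins, lay between 10.41 and 10.76 in all 10 samples, and all groups overlapped. The difference from WT was 0.02 in p27-/- (limma, adjusted p = 0.909) and 0.04 in the compound mutant (adjusted p = 0.844).

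Across the 8 tested members the median log2 difference from WT was 0.33 in p27-/-, with 7 of 8 above 0, and 0.18 in p27-/-;Sox2+/-, with 8 of 8 above 0. The medians over all tested genes were 0.00875 and 0.00981. These comparisons share the WT samples, so that their directions are not independent. Between the mutants, the median was -0.10, with 6 of 8 members below 0, against -0.00435 over all tested genes.

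**Figure D2:**
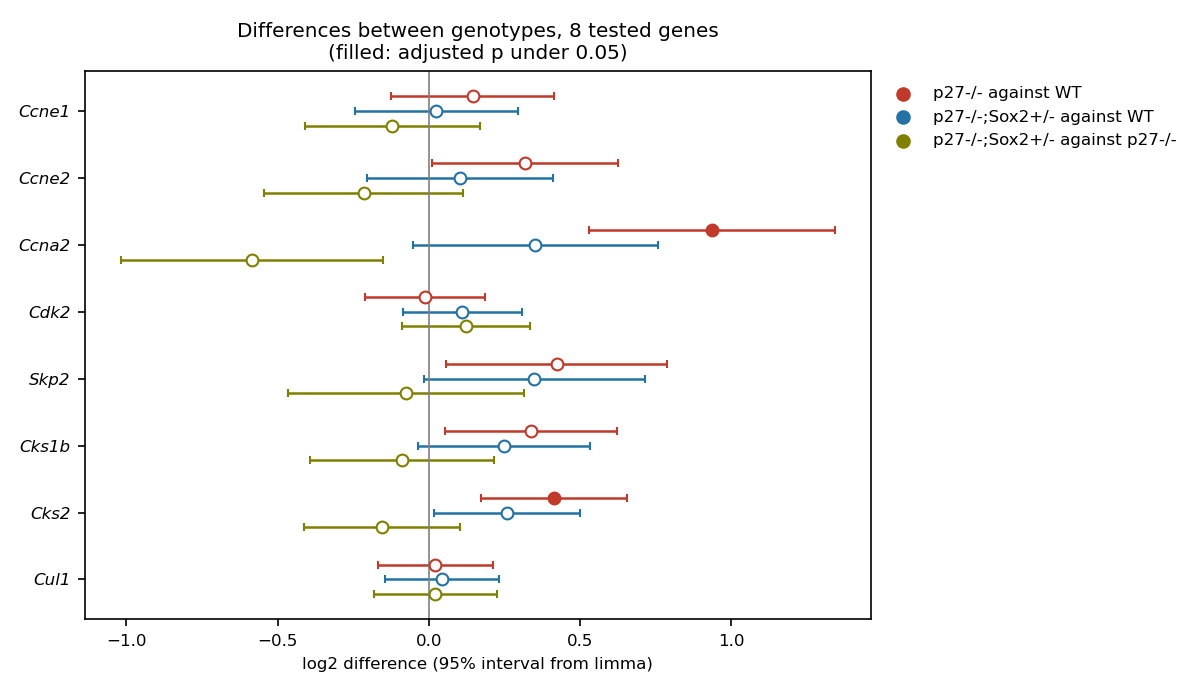
Log2 difference of each of the 8 tested genes (horizontal axis) for the 3 comparisons, as points with the 95% interval from limma, filled where the adjusted p is under 0.05. Only Ccna2 and Cks2 in p27-/- against WT are filled, and the interval of Ccna2 between the mutants, -1.02 to -0.15, lies below 0 without passing the adjusted threshold. Intervals also lie above 0 without passing for Skp2 (0.06 to 0.79), Cks1b (0.05 to 0.62) and Ccne2 (0.01 to 0.63) in p27-/- against WT. The same holds for Cks2 (0.02 to 0.50) in p27-/-;Sox2+/- against WT.

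The call of Ccna2 depended on p27-/- replicate 3 and that of Cks2 on most of the samples, as shown by the plot of adjusted p-values with each sample left out.

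**Figure D3:**
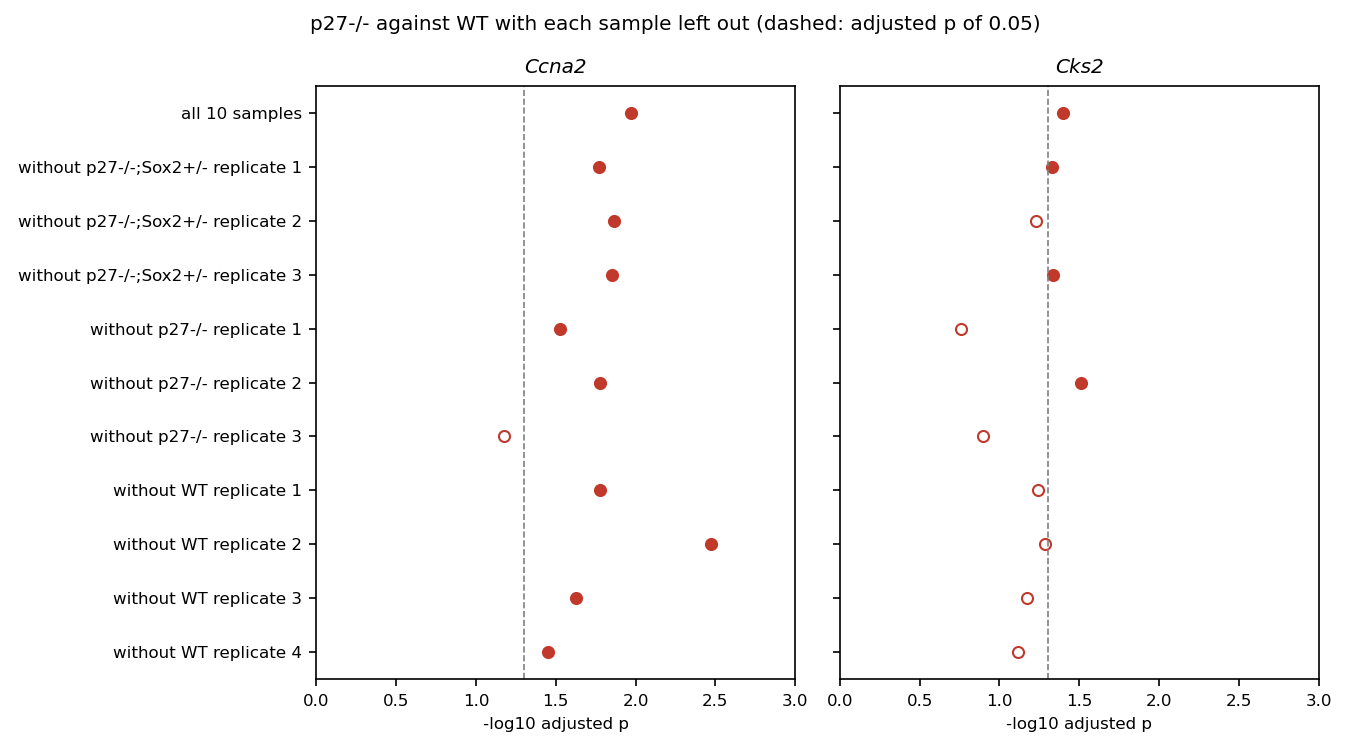
Negative log10 of the adjusted p for Ccna2 (left) and Cks2 (right) in p27-/- against WT, with all 10 samples and with each sample left out in turn, filled where it is past the dashed threshold of 0.05. Ccna2 falls short only without p27-/- replicate 3 (adjusted p = 0.0669), whereas Cks2 passes in only 3 of the 10 fits with a sample left out.

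Levels of different genes were compared per kilobase of the longest annotated transcript, on the linear scale. In WT, Cul1 was the most abundant at 472 ± 29.2 (SD, n = 4), followed by Cks1b at 94.8 ± 10.5. Ccne2, Cks2, Skp2 and Ccna2 came next with means from 30.1 down to 21.5, and the ranges of neighbours among these 4 genes overlapped. Their order depends on the transcript chosen. By the shortest, Skp2 would be at 45.5 and Ccna2 at 37.1, above Ccne2 at 31.1 and Cks2 at 28.2. Ccne1 at 10.9 ± 0.43 and Cdk2 at 9.23 ± 0.56 were lower, although Ccne1 would be at 36.0 by its shortest transcript. Ccna1 was lowest, at 2.38 ± 0.03. In p27-/- IL, Ccna2 stood at 41.3 ± 10.4 (SD, n = 3) and headed this middle group, with a range that overlapped those of Cks2 and Ccne2. Cdkn1b itself was at 86.5 ± 11.7 in WT by its longest transcript and at 164.5 by its shortest, for which Cks1b would be at 105.1.

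The same fit was read for the pathway around the members. Of 12 other regulators of CDK2, including the CDC25 activators, WEE1 and the inhibitors, Cdkn1b was the one that changed, in both mutants, and the median difference in p27-/- was 0.11. Cdkn1a, the gene of the related inhibitor P21, differed by 0.54 and Cdc25b by 0.52, without passing. Of 16 other genes for parts that turn over P27 or cyclin E, such as Rbx1, Skp1a, Fbxw7 and the CUL1 partners, 0 passed limma in p27-/- (4 at an unadjusted p under 0.05), 0 in p27-/-;Sox2+/- (1 so) and 0 between the mutants (0 so), with medians of 0.10, 0.07 and -0.05.

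Genes of S phase and of mitosis were read in the same fit. In p27-/-, 4 of 14 S phase genes rose, Mcm2 by 0.53 (limma, adjusted p = 0.00797), Mcm3 by 0.48 (adjusted p = 0.0390), Mcm6 by 0.34 (adjusted p = 0.0481), all parts of the replicative helicase, and the transcription factor gene E2f1 by 0.45 (adjusted p = 0.0374). The median of the list was 0.25, and Pcna, the replication clamp, had a difference of 0.44 that just missed the threshold. This count is not stable, since it fell to 1 in several fits: without p27-/- replicate 2 or 3, without WT replicate 3 or 4, without p27-/-;Sox2+/- replicate 2, without a minimum level, in a fit of only the 2 groups, and with the replicate block. It was 2 without p27-/- replicate 1 or without p27-/-;Sox2+/- replicate 1. In p27-/-;Sox2+/- 0 of 14 passed limma, with 5 at an unadjusted p under 0.05 and a median of 0.24.

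Among 8 mitotic cyclins and their partners, 7 rose in p27-/-. Without a sample the count was 5 to 7, with 5 without p27-/- replicate 3, and it was 2 with a mean of at least 50, as the minimum then left only Mki67 and Top2a. Mki67 rose by 2.19 and Top2a, the topoisomerase that untangles replicated DNA, by 2.13, ahead of Ube2c (1.02), Cdk1 (0.88), Ccnb1 (0.87), Cdc20 (0.53) and Ccnb2 (0.51), and the median was 0.88. Ccna2 with its 0.94 lay in size between Cdk1 and Ube2c, and the cyclin E genes at 0.15 and 0.32 lay close to Ccnf, the member of the list that was not called, at 0.20. In p27-/-;Sox2+/- 2 of 8 rose, Mki67 by 1.36 (limma, adjusted p = 0.0105) and Top2a by 1.16 (adjusted p = 0.0140), with 1 remaining without p27-/-;Sox2+/- replicate 1 or 3. Between the mutants all 8 were lower in p27-/-;Sox2+/-, with a median of -0.49, and 0 passed limma, although 7 had an unadjusted p under 0.05 and 5 passed when samples were weighted by their quality. The summed level of the 8 genes ran from 292 to 515 in WT, from 1062 to 1641 in p27-/- and from 608 to 835 in p27-/-;Sox2+/-, without overlap between the 3 genotypes. Mki67 and Top2a made up most of each sum. Singly, Mki67, Top2a, Ube2c and Ccnb2 also did not overlap, whereas Cdk1, Ccnb1, Cdc20 and Ccnf overlapped between WT and the compound mutant. Ccnb1, Cdc20 and Ccnf also overlapped between the mutants, and Ccnf between WT and p27-/-. Of all tested genes, 10.2% were higher without overlap in p27-/- than in WT, and 7.02% in the compound mutant than in WT. Between the mutants 7.75% were lower without overlap in the compound mutant. The share for all 3 comparisons at once was not computed.

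**Figure D4:**
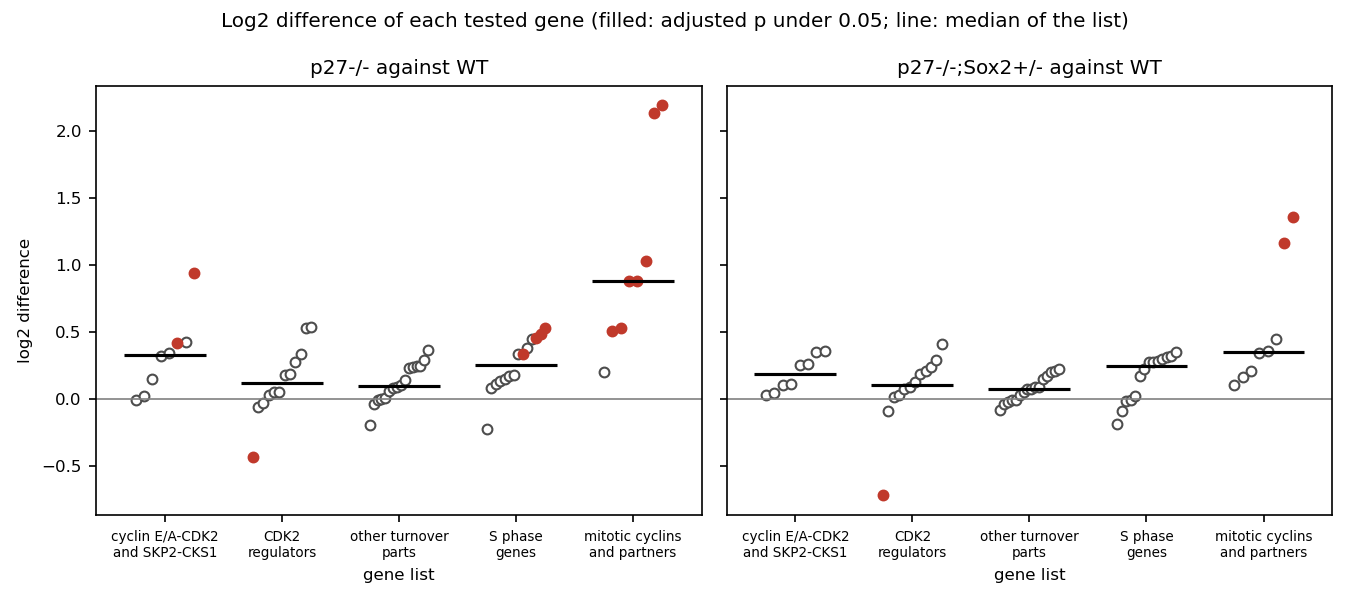
Log2 difference from WT of each tested gene (vertical axis) in p27-/- (left) and p27-/-;Sox2+/- (right) for 5 gene lists, as points filled where the adjusted p is under 0.05, with a line at the median of the list. In p27-/- the medians run from 0.10 for the other turnover parts to 0.88 for the mitotic genes, with 0.33 for the cyclin E/A, Cdk2 and SKP2-CKS1 genes.

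The genes whose values followed each member most closely over the 10 samples are given as a description, since the samples share their 3 genotypes and the closest of many genes was picked. For Ccna2 these were Kif14, Pbk and Cenpf (Pearson r of 0.975, 0.975 and 0.972), all genes of mitosis. Cks2 was closest to Cse1l (0.966), Stag2 and Srsf3, and Ccne2 to Rheb (0.953), Smc2 and Ept1. Skp2 was closest to Slc35f5 (0.951), Mrpl32 and Metap2, and Cks1b to Cuedc2 (0.910), Hnrnpk and Nup107. For Cdk2 they were Plxnc1 (0.936), Slx1b and Pou3f4, for Ccne1 Gba2 (0.916), Ankk1 and Kif21b, and for Cul1 Eed (0.951), D4Bwg0951e and Enpp2. None of these 8 trios held another member, and no gene appeared in more than 1 of them.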

How the data were processed

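RNA of 10 dissected IL samples was sequenced by the authors, who aligned the reads with STAR 2.5.2a, counted them per gene with RSEM 1.3.30 without use of strand on the Ensembl transcriptome of GRCm38, and normalized the counts with DESeq2 1.18.1. The values deposited by the authors are log2 values of 29527 genes. The transformation is not given in the sources used here. The lowest value is -1.89, so they are not counts, and the table does not give the depth of a sample, which is therefore unknown here. No detection limit is given, and precision rests on the number of samples.

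Groups follow the genotype given by the labels, which name no batch. The labels do not tie a library to an animal, and p-values measure the spread between these samples. A single two-sided limma 3.58.1 fit (R 4.3.3) with a mean-variance trend took in all 3 genotypes. It was run on 17268 genes with a linear mean of 10 or more (log2 of 3.32), p-values were adjusted over these by Benjamini-Hochberg, and 0.05 was the threshold on the adjusted p. Tables and figures were made with Python 3.11.15, pandas 2.3.3, numpy 2.4.6 and matplotlib 3.10.9. Symbols were matched for 22709 genes. Lengths are those of GENCODE M1 transcripts. Summed levels are sums of linear values.

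On simulated data with 200 of 17268 genes changed between p27-/- and WT, the fit recovered 29.5% of genes changed by a log2 difference of 0.5 (6.35% false calls), 90% of those changed by 1 (3.74%) and 100% of those changed by 2 (4.76%). Differences of 0.5 or less, as for most members, can thus be missed. The measured comparison called 1343 genes, more than were changed in the simulation, so recovery in the data may differ from these shares. The members and gene lists were chosen with earlier results of these data known. Named are the 9 members, Cdkn1b, Sox2 and Mki67, up to 6 genes of each pathway list past the threshold, and the 3 genes closest to each member. Cdc20, Ccnf, Cdkn1a, Cdc25b, Pcna and the called cell type markers were named after their values were seen. As alternatives, the minimum level was removed or raised to 50, the trend was dropped, and pairs of genotypes were fitted alone. Samples were weighted by quality (array weights) or left out in turn. Values were centred on medians or quantile normalized, and Xist, as a mark of sex, or the replicate number was added as a term. Tests on counts were not run.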

Additional observations from a re-analysis of the deposited data

Results flagged for a closer look

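In 2 of the 12 measures looked at among the 4 WT samples, 1 sample stood apart by more than Dixon's 95% critical ratio, which chance gives in about 1 of 20 groups. Cdk2 was at a log2 value of 4.35 in WT replicate 2 against 4.52 to 4.54 in the other 3, with a gap ratio of 0.919. WT replicate 2 was also the sample with the highest anterior lobe hormone markers, and the part of these in its Cdk2 value was not tested. Without it, the differences of Cdk2 from WT did not pass the test either. Sox2 was at 7.76 in WT replicate 3 against 7.34 to 7.39 in the others, with a gap ratio of 0.885, so the WT mean of 7.46 lies above 3 of the 4 WT samples. Groups of 3 samples were not examined in this way.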

How the results depend on the processing

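Of the 447 member differences recomputed under the alternatives, 435 kept their side of the threshold and 12 lost a call, 11 for Cks2 and 1 for Ccna2 in p27-/- against WT. No called difference changed direction, while some uncalled ones near 0 did. None of the members was called in p27-/-;Sox2+/- against WT or between the mutants in any of 19 alternatives, nor with a sample left out (0 to 0). The count of members called in p27-/- against WT was 1 with a mean of at least 50 (Cks2 is then not tested), with only the 2 groups compared, with array weights and with the replicate block, and 0 to 2 with a sample left out, 0 without p27-/- replicate 3. Without a minimum level it was 2, as Ccna2 with Ccna1 in place of Cks2. The genes called in p27-/- against WT were 831 without a minimum, 807 with only the 2 groups, 595 with the replicate block and 403 to 1709 with a sample left out. In p27-/-;Sox2+/- against WT they were 260 with only the 2 groups, 1240 with array weights, 209 with the replicate block and 80 to 658 with a sample left out. Between the mutants they were 6 without a minimum, 45 with only the 2 groups, 8 with no trend, 283 with array weights, 15 with quantile normalization, 2 with the replicate block and 0 to 41 with a sample left out. With the replicate block the Ccna2 difference in p27-/- was 0.85 (limma, adjusted p = 0.0419) and the Cks2 adjusted p was 0.104. Replicate numbers do not pair the samples, since only 1 of 9 same-number pairs correlated above 0.1 (-0.238 to 0.182). The list counts under each alternative were chosen after seeing the data. The cause of these changes was not tested.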
